A study of Mus musculus with 10 samples.

Results

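Of the 46517 genes counted in these mouse kidneys, 5 are described here: Spaca7, D630011A20Rik, Sprr2f, Arhgap36 and Meltf. They were listed because they were almost absent from reference kidneys and present in kidneys with an APOL1 risk allele, so they were chosen by the counts that separate those kidneys. Those differences are therefore given as descriptions, with exact intervals and no test. APOL1 is a human apolipoprotein L gene, and the study expressed its variants in podocytes, which form the outer layer of the glomerular filter. Poly(A) RNA of whole kidney was sequenced in 10 libraries: 2 of genotype G1-APOL1 and 2 of genotype G2-APOL1, both labelled as risk alleles, 3 labelled wild type (single mutant) and 3 labelled Control. The last 2 groups, 6 libraries, are called the reference kidneys below. The labels give neither the strain, sex or age of the mice, nor the promoter of the transgene, nor what the words single mutant stand for. The sample titles of the 3 wild type (single mutant) libraries also begin in different ways (G1NF, GNA1 and NA), which the labels do not explain, so whether they form 1 kind of mouse is not known. Whether the libraries of a group are from different mice is not stated, so errors and p-values reflect the variation among the libraries and this may be technical.

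The 5 genes have unlike known roles. Spaca7 encodes a protein of the acrosome, the secretory vesicle of the sperm head, and its expression is best known from testis. D630011A20Rik is a long non-coding RNA gene with no assigned role. Sprr2f encodes a small proline-rich protein, one of a family that transglutaminases cross-link into the cornified envelope of squamous epithelia. Arhgap36 encodes a protein that inhibits the catalytic subunit of protein kinase A and thereby activates Hedgehog signalling. Meltf encodes melanotransferrin, an iron-binding relative of transferrin that is anchored to the cell surface and was first described in melanoma.

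Library totals ran from 27596391 to 34815153 counts, so that 3 counts, the floor used below, stood for 0.0862 to 0.109 CPM (counts per 1000000 counts of the library). A gene at 0 counts allows up to 3.69 counts in that library (exact Poisson interval at 95%), and such intervals and floors cover counting error only. The same limit of 3.69 counts holds for a group at 0. Folds given below as at least are set against the floor of 3 counts for such a group. They are therefore not 95% lower bounds and would be smaller at that limit. Kidney identity was checked against 10 proximal tubule markers, whose summed level was 4719 to 8914 CPM in the risk allele libraries and 16280 to 17939 CPM in the reference libraries. All 10 fell in risk alleles against Control (edgeR, described below), where 37.3% of all tested genes were called. The 10 had a median log2 fold change of -1.50, and their part in the members' levels was not tested. Liver transcripts differed between the reference groups: 10 markers summed to 213.0 to 690.1 CPM in wild type (single mutant) and 64.6 to 130.1 CPM in Control. Of the 10, 0 were called between these groups. The library wild type (single mutant) replicate 1 stood apart in Alb, with 5814 counts against 239 to 649 in the other reference libraries. Member ratios that rest on this library are given with and without it. Leaving it out does not remove the difference in liver transcripts between the reference groups. All 5 genes passed the filter on low counts that left 17823 genes for testing, and because they could pass it through the risk allele libraries alone, that count carries no information. Bulk kidney was measured, so more cells of a type and more RNA per cell cannot be told apart.

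Start regions are shown for the members whose position bears on their counts. Sequences and windows (250 bases before to 50 bases after the annotated start, 300 in all) are from RefSeq on GRCm38.p6, and 4 of the 5 members have such a window. Spaca7 (ENSMUSG00000010435.6) and D630011A20Rik (ENSMUSG00000097421.1) lie head to head on chromosome 8 and are transcribed in opposite directions. Their first parts overlap by 292 bases. The window of Spaca7, chr8:12572786-12573085 on the plus strand, therefore also holds the last 18 bases of the first exon of D630011A20Rik, which is read from the opposite strand, and these are in capitals.
Spaca7: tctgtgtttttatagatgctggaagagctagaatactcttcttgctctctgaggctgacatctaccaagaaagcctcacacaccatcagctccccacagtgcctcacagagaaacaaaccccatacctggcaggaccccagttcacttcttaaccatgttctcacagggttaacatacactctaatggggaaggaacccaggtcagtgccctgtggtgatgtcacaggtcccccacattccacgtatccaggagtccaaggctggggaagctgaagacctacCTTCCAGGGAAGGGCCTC
Sprr2f (ENSMUSG00000050635.1) lies in the Sprr2 cluster of chromosome 3, among related genes, 5 of which had 0 counts in all 10 libraries. Its window, chr3:92364937-92365236 on the plus strand, is set beside that of its neighbour Sprr2e, chr3:92351893-92352192, also on the plus strand. Capitals mark matches to TATAAA, to TGANTCA (the AP-1 motif) and to CCAAT, on either strand.
Sprr2f: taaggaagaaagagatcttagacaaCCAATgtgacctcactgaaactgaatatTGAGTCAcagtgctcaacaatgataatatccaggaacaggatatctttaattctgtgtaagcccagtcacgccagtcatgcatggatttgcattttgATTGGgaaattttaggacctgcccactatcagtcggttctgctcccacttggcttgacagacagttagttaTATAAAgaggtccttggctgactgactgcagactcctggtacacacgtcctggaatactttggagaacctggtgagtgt
Sprr2e: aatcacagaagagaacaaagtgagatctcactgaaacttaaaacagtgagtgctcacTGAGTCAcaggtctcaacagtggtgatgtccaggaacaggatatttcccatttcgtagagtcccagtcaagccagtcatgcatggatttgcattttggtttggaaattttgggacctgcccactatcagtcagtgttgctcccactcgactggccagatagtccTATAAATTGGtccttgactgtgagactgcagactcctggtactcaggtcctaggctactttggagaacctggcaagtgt
Both windows hold TATAAA from position -29 to -24 relative to the start. The AP-1 motif lies from -197 to -191 in Sprr2f and from -193 to -187 in Sprr2e. Of the 300 positions, 131 are identical between the windows without gaps. The windows of Sprr2b, Sprr2d, Sprr2h, Sprr2i and Sprr2k also hold TATAAA from -29 to -24, and each holds the AP-1 motif. In the Spaca7 window TATAAA occurs on the opposite strand, from -242 to -237. Over all 32851 windows of this length in the table, TATAAA occurs in 13.6%, TGANTCA in 7.81% and CCAAT in 37.4%, on either strand. A letter match describes the window and is no measurement of binding.

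Spaca7 was read in all 4 risk allele kidneys and was at or near 0 in the reference kidneys. The gene spans chr8:12573029-12600744 on the plus strand in GRCm38 (GENCODE M21) and has 979 exon bases in 8 blocks. Counts were 153 and 187 in the G1 libraries, 86 and 41 in the G2 libraries, 2, 1 and 0 in wild type (single mutant), and 0, 0 and 0 in Control. The lowest risk allele library, with 41 counts (exact interval 29.4 to 55.6), stood well above the highest reference library, with 2 (0.242 to 7.22), and the groups did not overlap. Such separation of all 4 risk allele from all 6 reference libraries, with the risk alleles higher in CPM, was seen in 29.8% of all tested genes, and nothing is read from it for genes chosen by it. Levels were 4.47 and 5.51 CPM in G1 and 2.95 and 1.18 CPM in G2. Against Control, which had no count at all, the pooled level in risk allele kidneys was at least 103-fold higher. This is set against the floor of 3 counts over the group and is not a 95% limit. On the same floor it was at least 145.9-fold in G1 and at least 58.1-fold in G2. Against the 3 counts in wild type (single mutant) the ratio was 109.9 (95% exact interval 37.4 to 534.9). Without replicate 1 of that group, 1 count was left and the ratio was 219 (39.1 to 8666).

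D630011A20Rik gave nearly the same picture. It spans chr8:12554272-12573320 on the minus strand, with 500 exon bases in 2 blocks, and is annotated as a long non-coding RNA of a bidirectional promoter. Its counts were 188 and 199 in G1, 97 and 31 in G2, 4, 1 and 0 in wild type (single mutant), and 3, 0 and 0 in Control. The 31 counts of the lowest risk allele library (exact interval 21.1 to 44.0) lay above the 4 counts of the highest reference library (1.09 to 10.2). Pooled levels in risk allele kidneys were 114 times those in Control (95% exact interval 38.8 to 554.6) and 72.7 times those in wild type (single mutant) (31.0 to 224.9). All 3 Control counts came from replicate 1, and without it Control was at 0 and the level was at least 74.2-fold higher. Of the 5 counts in that last group, 4 came from replicate 1, and without it the ratio was 241 (43.1 to 9555). The 5 and 3 counts of the reference groups gave a ratio of 1.57 with an interval from 0.305 to 10.1, so no difference between them was detectable at this depth. Without wild type (single mutant) replicate 1 they had 1 and 3 counts, at or under the floor, and no fold is given.

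The pair was counted at nearly equal numbers in each risk allele kidney. Reads of D630011A20Rik per read of Spaca7 were 1.23 (95% exact interval 0.987 to 1.53) and 1.06 (0.867 to 1.31) in G1, and 1.13 (0.835 to 1.53) and 0.756 (0.458 to 1.24) in G2. All 4 intervals include equality. Per exon base the shorter RNA gene stood higher, at 1.48 to 2.41 times the level of Spaca7. The annotated genes overlap by 292 bases, and 132 of these are exonic on both strands. Whether reads were counted by strand is not given in the sources used here, so reads of that overlap cannot be assigned to either gene. Of the 1169 distinct stretches of 100 bases in Spaca7 transcripts, 36 (3.08%) also occur in D630011A20Rik, where they make up 8.98% of 401. These 36 were the only ones shared with the transcripts of another gene for either member.

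**Figure D1:**
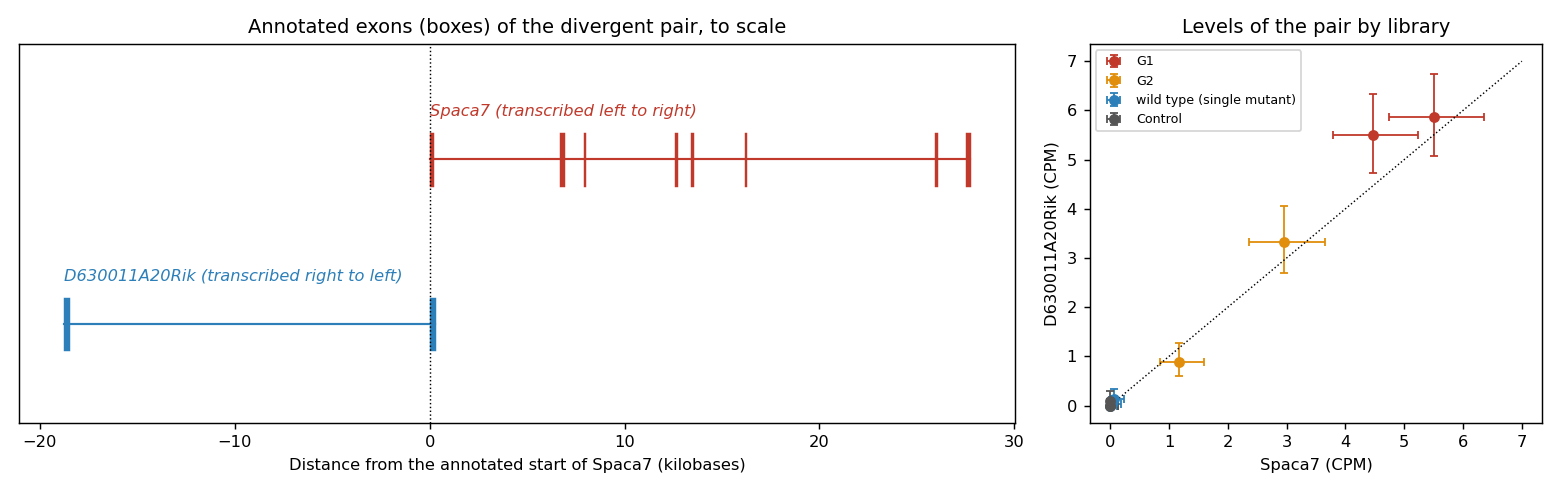
Left, annotated exons (boxes) of Spaca7 and D630011A20Rik against the distance in kilobases from the start of Spaca7. Right, level of D630011A20Rik against Spaca7 in CPM, 1 point per library coloured by genotype label, with exact 95% counting intervals and a dotted line of equality: the 4 risk allele libraries lie along the line and the 6 reference libraries at its foot.

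The likeness of the pair was also the closest among the members. With each gene's log2(CPM + 0.1) centred over the 10 libraries, the root mean square difference between Spaca7 and D630011A20Rik was 0.344, against 0.630 to 1.34 for the other 9 pairs of members. The points share their libraries and depths, and the large step between risk allele and reference kidneys is common to all members by choice.

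Most other acrosome genes were not called against Control. Of 29 other genes of the acrosome and of sperm-egg fusion in the tables, 9 passed the filter. In risk alleles against Control, 1 of these 9 rose, 0 fell and 8 were not called (edgeR's quasi-likelihood test, Benjamini-Hochberg adjusted p under 0.05), where 37.3% of all tested genes were called, 19.3% of all as higher. Their median log2 fold change was 0.22, against 0.00 over all tested genes. The gene that rose was Pla2g7, which encodes a secreted phospholipase of macrophages, by 1.49 on the log2 scale (SE 0.19, adjusted p = 0.000597). Spaca6, needed for sperm-egg fusion, had a log2 fold change of 0.33 (SE 0.31, adjusted p = 0.440), and Spaca9 one of 0.95 (SE 0.74, adjusted p = 0.342). Against wild type (single mutant) 2 of the 9 rose and 0 fell, where 40.0% of all tested genes were called, and 1 of them was Spaca9. Spaca9 had 8 and 21 counts in G1, 9 and 59 in G2, 0, 3 and 2 in wild type (single mutant) and 10, 3 and 11 in Control, and rose against wild type (single mutant) by 3.22 (log2, SE 0.93, adjusted p = 0.0232). Of the 20 male germ cell markers, Tnp1 had 0 counts in all 10 libraries, and Prm1, Prm2, Tnp2, Akap4, Odf1 and Ldhc had at most 1 count in any library. Odf2l, Smcp, Sycp3 and Tssk6 stood highest. Of 7 tested, 0 rose in risk alleles against Control and 1, Smcp, fell. Smcp had 13 and 17 counts in G1, 157 and 181 in G2 and 41 to 243 in the reference libraries. Its call was lost in 7 of 10 fits that each left out 1 library. Summed over the 20 germ cell markers, levels were 23.7 CPM in both G1 libraries, 27.1 and 31.1 CPM in G2 and 21.9 to 27.7 CPM in the reference libraries.

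Sprr2f was the most abundant member per exon length in G1 kidneys and was at 0 or 1 count in every reference library. It spans chr3:92365187-92366442 on the plus strand, with 609 exon bases in 2 blocks. Counts were 280 and 378 in G1, 47 and 78 in G2, 0, 0 and 0 in wild type (single mutant), and 0, 1 and 1 in Control. In CPM these were 8.18 and 11.1 in G1 and 1.61 and 2.24 in G2. The 3 levels, G1, G2 and reference, were separated without overlap, and the lowest risk allele count, 47 (exact interval 34.5 to 62.5), was far above the highest reference count, 1 (0.0253 to 5.57). Pooled levels were at least 184-fold higher in risk allele kidneys than in wild type (single mutant), which had no count, and 260 times those in Control (95% exact interval 71.7 to 2151), which rests on 2 counts. Without wild type (single mutant) replicate 1, which had 0 counts as well, the bound was at least 122-fold. No stretch of 100 bases among the 510 of its transcript occurs in another gene's annotated transcript, so its reads were distinguishable from those of its relatives.

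Within the Sprr2 family, high counts were seen in Sprr2f and in the adjacent Sprr2g, 7473 bases away. Sprr2g had 372 and 381 counts in G1, 42 and 47 in G2, 2, 0 and 7 in wild type (single mutant) and 6, 2 and 1 in Control. Its log2 fold change in risk alleles against Control was 4.95 (SE 0.66). Sprr2g passed the filter on low counts through risk allele libraries alone, so no p-value is given. Sprr2a3 was expressed in reference kidneys too and followed another order, with counts of 13 and 110 in G1, 8 and 157 in G2, 50, 39 and 15 in wild type (single mutant), and 43, 8 and 65 in Control (log2 fold change 0.32, SE 0.99, adjusted p = 0.824). Its transcript shares 36.2% of its stretches of 100 bases with Sprr2a1 and Sprr2a2, so its count is uncertain. Sprr2e had 4 and 2 counts in G1, 1 and 0 in G2 and 0 in the reference libraries. Sprr2a1, Sprr2h and Sprr2k had at most 1 count in any library, and the other 5 genes, Sprr2a2 among them, had 0 counts throughout. Sprr2a1 and Sprr2a2 share 92.5% and 92.8% of their stretches of 100 bases with other Sprr2 genes. Their low counts are therefore uncertain too and do not show that these genes were silent.

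**Figure D2:**
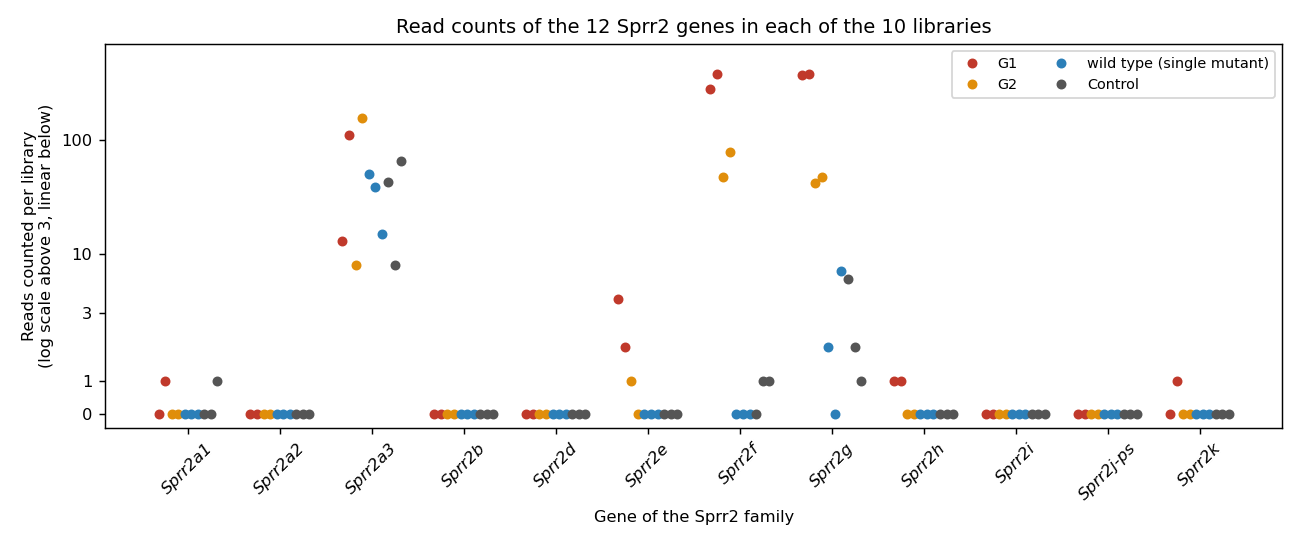
Read counts of the 12 Sprr2 genes (vertical axis, linear up to 3 and logarithmic above) in each of the 10 libraries, 1 point per library in the order G1, G2, wild type (single mutant), Control within each gene. Sprr2f and Sprr2g hold the G1 libraries at 280 to 381 counts and the G2 libraries at 42 to 78, while Sprr2a3 mixes the groups and the other 9 genes stay at 4 counts or fewer.

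Genes of the cornified envelope moved unevenly. Of 32 matched genes of that list other than the Sprr2 family, 14 were tested; 4 rose, 1 fell and 9 were not called in risk alleles against Control, with a median log2 fold change of 0.57 and beside 37.3% called and 19.3% called higher over all tested genes. Of the 4, Crct1 and Tgm5 passed the filter on low counts through risk allele libraries alone. Crct1, a cysteine-rich gene of the epidermal differentiation complex, had 110 and 107 counts in G1, 4 and 3 in G2 and 0 in each reference library. Its pooled level in G1 was at least 192-fold above that of the reference kidneys, and in G2 at least 6.61-fold. Sprr1a, another small proline-rich protein gene, rose by 2.61 (log2, SE 0.39, adjusted p = 0.00125) and Sbsn, which encodes suprabasin, by 1.35 (SE 0.22, adjusted p = 0.00182). The transglutaminase gene Tgm5 had 13 and 14 counts in G1, 8 and 20 in G2 and 0 to 2 in the reference libraries. The gene that fell, Smcp, encodes a sperm mitochondrial protein (log2 -1.85, adjusted p = 0.0412), and its call was lost with library totals alone (adjusted p = 0.0602) and in 7 of 10 fits that each left out 1 library (highest adjusted p = 0.151, without Control replicate 3). The keratinocyte transglutaminase gene Tgm1 and the envelope proteins Evpl and Ppl were not called.

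Markers of squamous and urothelial cells were measured beside Sprr2f. The 11 markers of keratinized squamous epithelium summed to 9.50 to 14.6 CPM in risk allele and 8.52 to 14.4 CPM in reference libraries. Of these, 3 were tested and 0 were called, where 37.3% of all tested genes were called. Their median log2 fold change was 1.34. The basal keratin gene Krt14 had 24 and 149 counts in G1, 33 and 42 in G2 and 4 to 30 in the reference libraries (log2 fold change 1.38, SE 0.70, adjusted p = 0.154). Krt10 had 282 to 441 counts in risk allele and 219 to 399 in reference libraries. Among keratins of stressed epithelium, Krt6b had 0 counts and Krt6a and Krt16 at most 2 in any library. Transcripts of urothelium, the lining of the renal pelvis, varied among the libraries. Upk1a, which encodes a urothelial plaque protein, had 88 and 517 counts in G1, 61 and 1592 in G2 and 151 to 493 in the reference libraries. The 13 urothelial markers summed to 225 and 328 CPM in G1, 57.6 and 435.6 CPM in G2 and 59.3 to 152.3 CPM in the reference libraries. Of 12 tested, 1 rose, where 19.3% of all tested genes were called higher. This was Krt20, with 6642 and 6529 counts in G1, 496 and 543 in G2 and 15 to 82 in the reference libraries. Krt20 held most of the urothelial sum in each G1 library, so the height of that sum in G1 rests mainly on 1 gene. Of 25 tubular injury transcripts, 24 rose and 0 fell in risk alleles against Control, where 37.3% of all tested genes were called, 19.3% of all as higher. Their sum was 26730 to 38789 CPM in G1, 7323 to 10837 CPM in G2 and 1140 to 1719 CPM in the reference libraries. Their part in the level of Sprr2f was not tested.

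Arhgap36 was the member with the higher level in G2. It spans chrX:49463945-49500244 on the plus strand, with 3421 exon bases in 16 blocks. Counts were 31 and 72 in G1, 178 and 94 in G2, 1, 0 and 1 in wild type (single mutant), and 0, 1 and 0 in Control. In CPM, the G1 libraries were at 0.906 and 2.12 and the G2 libraries at 6.11 and 2.70. The lowest risk allele library, with 31 counts (exact interval 21.1 to 44.0), lay above all reference libraries, which had 0 or 1. The closest G1 and G2 libraries, at 2.12 (1.66 to 2.67) and 2.70 (2.18 to 3.30) CPM, had overlapping counting intervals. Pooled over risk allele kidneys the level was 249 times that in Control (95% exact interval 44.4 to 9862), which rests on 1 Control count (at least 55.1-fold without Control replicate 2, which held it), and 132 times that in wild type (single mutant) (36.4 to 1097), or 176 (31.4 to 6962) without replicate 1. Its 3414 stretches of 100 bases occur in no other gene's annotated transcript.

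Genes of Hedgehog signalling and protein kinase A, on which the Arhgap36 protein acts, showed no common direction. Of 29 tested, 4 rose, 4 fell and 21 were not called in risk alleles against Control, with a median log2 fold change of 0.00. Over all tested genes 37.3% were called, 19.3% of all as higher. Scaling by library totals alone moved the median of all tested genes to 0.28. With that scaling 13 of the 29 rose and 1 fell, beside 6036 higher and 1601 lower of all 17823 tested genes. Gli3, a transcription factor of the pathway, rose by 1.33 (log2, SE 0.27, adjusted p = 0.00570), and Kif7, a kinesin of the cilium, by 0.87 (SE 0.21, adjusted p = 0.0112). Evc, a ciliary component that promotes signalling downstream of Smoothened, fell by 1.26 (SE 0.17, adjusted p = 0.000612). The kinase subunits Prkar1a, Prkaca and Prkacb were not called, with log2 fold changes of 0.04 (SE 0.08), -0.10 (SE 0.08) and 0.05 (SE 0.07). The regulatory subunit gene Prkar2a fell by 0.33 (SE 0.10, adjusted p = 0.0293), which was not called with library totals alone (log2 -0.05, adjusted p = 0.762), with no filter on low counts (0.0618) or in 5 of 10 fits that each left out 1 library (highest 0.0861, without G1 replicate 2). Arhgap36 is known from endocrine and hypothalamic tissue. Among pituitary and hypothalamic markers, Prl, Fshb, Cga and Avp had 0 counts in all 10 libraries, while Npy, Pomc, Agrp and Tshb stood highest. Among adrenal cortex markers, Cyp11b1 and Cyp11b2 had 0 counts in all 10 libraries, while Star, Akr1b7, Mrap and Hsd3b1 stood highest. The 15 pituitary and hypothalamic markers summed to 1.32 and 1.97 CPM in G1, 1.75 and 8.99 CPM in G2 and 1.18 to 3.14 CPM in the reference libraries; Npy, with 264 counts, held most of the highest sum. The 10 markers of adrenal cortex summed to 7.22 and 7.66 CPM in G1, 7.12 and 8.07 CPM in G2 and 3.50 to 6.56 CPM in the reference libraries. Of these, 4 were tested, 1 rose and 0 fell, beside the 19.3% of all tested genes called higher. The gene that rose was Akr1b7, an aldo-keto reductase gene, with 111 and 106 counts in G1, 148 and 53 in G2 and 15 to 59 in the reference libraries (log2 2.04, SE 0.52, adjusted p = 0.0141, or 0.0519 without Control replicate 3). The part of these markers in the level of Arhgap36 was not tested.

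Meltf had the most reads of the 5 and was the member that was low but not silent in reference kidneys. It spans chr16:31878810-31899020 on the plus strand, with 4133 exon bases in 16 blocks. Counts were 514 and 384 in G1, 261 and 314 in G2, 8, 6 and 9 in wild type (single mutant), and 4, 7 and 0 in Control. In CPM, G1 was at 15.0 and 11.3, G2 at 8.96 and 9.02, wild type (single mutant) at 0.255, 0.193 and 0.292, and Control at 0.131, 0.237 and 0. Risk allele and reference libraries did not overlap, and the lowest risk allele count of 261 (exact interval 230.3 to 294.7) was far above the highest reference count of 9 (4.12 to 17.1). Pooled levels were 88.9 times those in Control (95% exact interval 49.6 to 178.5), or 162 (63.2 to 596.1) without Control replicate 2 and 61.0 (34.0 to 122.4) without Control replicate 3, and 45.2 times those in wild type (single mutant) (30.0 to 71.6), or 46.0 (27.8 to 82.5) without replicate 1. Between the reference groups, 23 and 11 counts gave a ratio of 1.97 (0.921 to 4.47), and the fitted log2 difference of 0.98 (SE 0.64) was not called (edgeR adjusted p = 1). Without wild type (single mutant) replicate 1 the ratio was 1.93 (0.829 to 4.65), and without Control replicate 2 it was 3.59 (1.23 to 14.3).

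Genes of iron transport and storage, set beside Meltf, changed in both directions. Of 34 other genes of iron transport and storage in the tables, 31 were tested. In risk alleles against Control 11 rose, 7 fell and 13 were not called, where 37.3% of all tested genes were called, 19.3% of all as higher. The 31 had a median log2 fold change of 0.01. With library totals alone, 13 rose and 5 fell, beside 6036 higher and 1601 lower of all 17823 tested genes. Lcn2, which encodes a siderophore-binding protein released by injured tubules, rose by 6.26 (log2, SE 0.34, adjusted p = 2.88e-05), from 2.58 ± 0.714 CPM in Control (SD, n = 3) to 327 ± 120 in G1 (SD, n = 2) and 178.7 ± 74.5 in G2 (SD, n = 2). Steap1, a metalloreductase gene, rose by 2.10 (SE 0.17, adjusted p = 8.68e-05). Slc39a8, a metal importer gene, fell by 0.92 (SE 0.12, adjusted p = 0.000556). The ferritin genes Fth1 and Ftl1 were not called, at -0.20 (SE 0.15) and -0.25 (SE 0.17). Ltf, the lactotransferrin gene, had 1 to 10 counts in risk allele libraries and 2 to 20 in reference libraries. The melanocyte enzyme gene Tyr had 0 counts throughout, and the 9 melanocyte markers summed to 13.3 to 19.6 CPM in risk allele and 13.8 to 19.1 CPM in reference libraries.

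**Figure D3:**
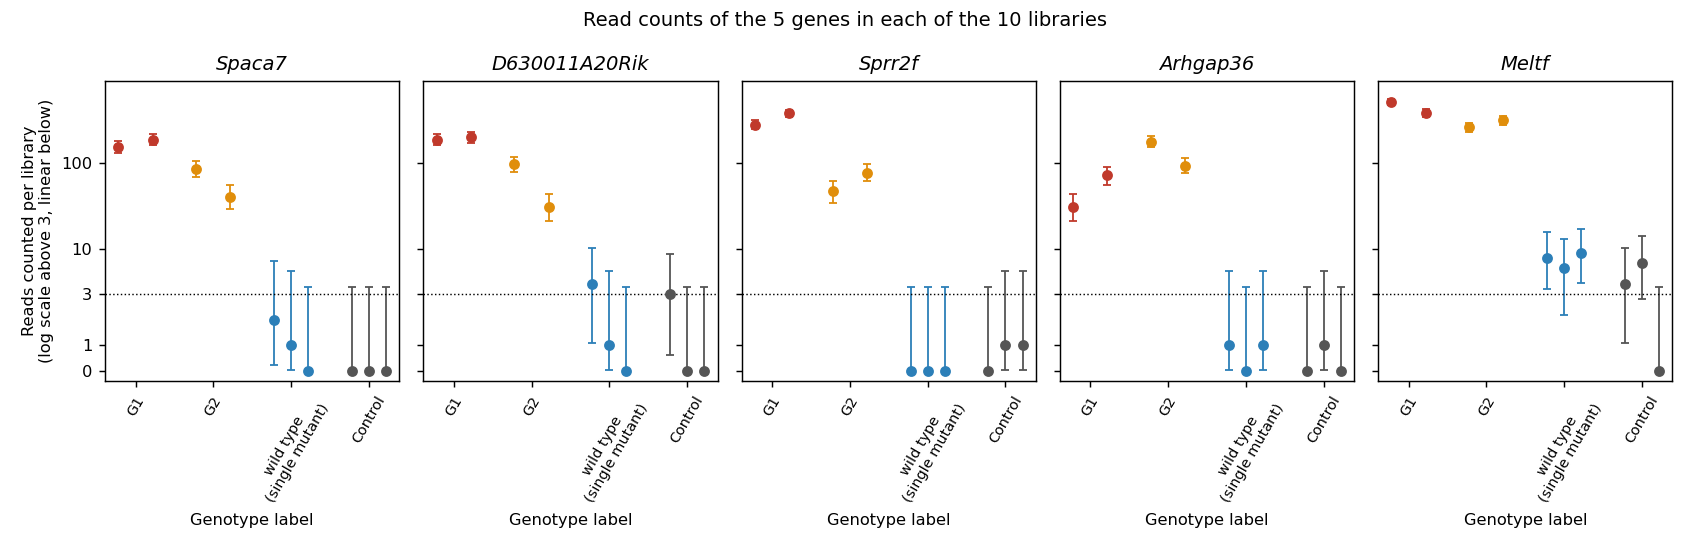
Read counts of the 5 genes (vertical axis, linear up to 3 and logarithmic above) in each library by genotype label, with exact 95% Poisson intervals and a dotted line at the floor of 3 counts. In every panel the 4 risk allele libraries, at 31 to 514 counts, lie above the 6 reference libraries, at 0 to 9.

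Levels can be compared between the members only per length. In CPM per kilobase of exon, the G1 means were 15.9 for Sprr2f, 11.4 for D630011A20Rik, 5.10 for Spaca7, 3.19 for Meltf and 0.443 for Arhgap36. The G2 means were 4.22 for D630011A20Rik, 3.16 for Sprr2f, 2.18 for Meltf, 2.11 for Spaca7 and 1.29 for Arhgap36. Sprr2f stood at the top with G1, and Arhgap36 was lowest with both alleles. In G1 no neighbours in this order overlapped. In G2 the libraries of Sprr2f, at 2.65 and 3.68, did not overlap those of Meltf, at 2.17 and 2.18, and the other neighbours in the order overlapped.

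The alleles were compared directly, which the choice of the genes did not use. Mean levels in G1 and G2 were 4.99 ± 0.734 and 2.07 ± 1.26 CPM for Spaca7 (SD, n = 2 each), 5.68 ± 0.261 and 2.11 ± 1.73 for D630011A20Rik, 9.66 ± 2.09 and 1.93 ± 0.443 for Sprr2f, 1.51 ± 0.860 and 4.41 ± 2.41 for Arhgap36, and 13.2 ± 2.62 and 8.99 ± 0.0411 for Meltf. Both G1 libraries were above both G2 libraries for 4 of the 5 genes and below them for Arhgap36. Among all tested genes, such separation of the alleles was seen with G1 higher in 30.0% and with G2 higher in 25.1%. Sprr2f was the member called, lower in G2 than in G1 by 2.28 on the log2 scale (SE 0.39, edgeR adjusted p = 0.0252 over all tested genes, of which 6.72% were called, 2.88% lower and 3.84% higher in G2). That call did not hold when any 1 of the 4 risk allele libraries was left out: the adjusted p was 0.111 and 0.137 without G1 replicate 1 or 2, and 0.0715 and 0.0913 without G2 replicate 1 or 2. The adjusted p ran from 1.26e-06 (DESeq2) to 0.137 over the alternatives, and the log2 difference from -2.50 to -2.13.

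The other members were not called between the alleles. Log2 differences of G2 against G1 were -1.20 (SE 0.58, edgeR adjusted p = 0.261) for Spaca7, -1.35 (SE 0.80, adjusted p = 0.342) for D630011A20Rik, 1.62 (SE 0.61, adjusted p = 0.142) for Arhgap36 and -0.51 (SE 0.48, adjusted p = 0.564) for Meltf. The spread within G2 was wide for the chromosome 8 pair, where replicate 1 had 2.95 and 3.33 CPM and replicate 2 had 1.18 and 0.890. Without G2 replicate 2 the difference of Spaca7 was -0.68 (adjusted p = 0.592) and that of D630011A20Rik -0.70 (adjusted p = 0.712), and without G2 replicate 1 they were -2.17 (adjusted p = 0.115) and -2.76 (adjusted p = 0.138). Sprr2g, adjacent to Sprr2f, was lower in G2 by a log2 difference of -2.93 (SE 0.65, adjusted p = 0.0346), and Crct1 by -4.75 (SE 0.49, adjusted p = 0.0157). The call of Sprr2g was lost without any 1 risk allele library (highest adjusted p = 0.170, without G1 replicate 1) and without wild type (single mutant) replicate 1 (0.0532). That of Crct1 was lost without G1 replicate 1 (0.102), G1 replicate 2 (0.0985) or G2 replicate 2 (0.0843). Crct1 passed the filter on low counts through the G1 libraries alone, so nothing is read from its call. Tubular injury transcripts had 9 of 25 lower and 0 higher in G2 (2.88% and 3.84% of all tested genes), with a median of -1.27 against 0.04 over all tested genes, and their part in these differences was not tested.

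For each member the 3 tested genes nearest in pattern were found by the same root mean square difference over the 10 libraries. Nearest to Spaca7 were Aoc1, the gene of a diamine oxidase (0.436), and the chemokine genes Cxcl2 (0.467) and Cxcl17 (0.474). D630011A20Rik was nearest to Cxcl2 (0.436), the hemidesmosomal collagen gene Col17a1 (0.478) and the microRNA gene Mir6358 (0.514). Sprr2f was nearest to the acute phase gene Saa1 (0.447), the chemokine gene Ccl20 (0.447) and the complement gene C3 (0.450). The nearest to Meltf were Serpina10 (0.502), Sox9 (0.640), a transcription factor of regenerating tubules, and Cxcl17 (0.671). For Arhgap36 it was Foxj1 (0.440), the transcription factor of motile cilia, followed by Zfp469 (0.497) and Aldh1a2 (0.605). Like Arhgap36, Foxj1 was higher in G2, with mean CPM of 3.99 in G1, 14.7 in G2, 0.472 in wild type (single mutant) and 0.297 in Control. These likenesses describe the libraries at hand, which share the step between risk allele and reference kidneys.

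Among genes next to the members on the chromosome, changes other than that of Sprr2g were smaller than those of the members. Of 16 named neighbours, 9 were tested in risk alleles against Control; 4 rose and 0 fell, where 37.3% of all tested genes were called and 19.3% were called higher. Beside the chromosome 8 pair, Tubgcp3, a gene of microtubule nucleation, rose by 0.36 (log2, SE 0.09, adjusted p = 0.0163, or 0.0614 and 0.0532 without Control replicate 1 or 3), and the phospholipid flippase gene Atp11a was not called (-0.87, adjusted p = 0.0717). Dlg1, 3681 bases from Meltf, had a log2 fold change of -0.13 and was not called, and Pigz on the other side rose by 1.94 (SE 0.32, adjusted p = 0.00176). The neighbours of Arhgap36 were Rbmx2, which rose by 0.73 (SE 0.16, adjusted p = 0.00700), Enox2, not called, and 2 olfactory receptor genes with 0 counts. The remaining gene that rose was Sprr2g, which passed the filter on low counts through risk allele libraries alone. Of the motifs searched, CCAAT occurred in the windows of Meltf and of the upstream start of Arhgap36, and neither TATAAA nor the AP-1 motif did. TTCNNNGAA (the STAT motif, in 8.30% of all windows) and the NF-kB motif (in 9.38%) were found in no member's window, which says only that these letters are not there.

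How common the pattern of the members is was counted with fixed thresholds: at most 3 counts in each of the 6 reference libraries and at least 10 in each of the 4 risk allele libraries. Of the 46517 genes, 31 (0.0666%) met both, 28 of them protein coding. Spaca7, Sprr2f and Arhgap36 were among them. D630011A20Rik lay just outside with its 4 counts in wild type (single mutant) replicate 1, and Meltf lay further outside with up to 9. Just inside were genes such as Atp13a4 and Fam83c, with up to 3 counts in a reference library. The opposite pattern, at most 3 counts in each risk allele library and at least 10 in each reference library, was met by 1 gene, Ccdc169, with 3, 3, 2 and 1 counts against 11 to 22. With at most 1 count allowed in each reference library, 3 genes were left: Sprr2f, Arhgap36 and the calcium-binding protein gene S100a3.

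By reads summed over the 4 risk allele libraries, Sprr2f with 783 counts was at rank 2 among the 31, Spaca7 with 467 at rank 4 and Arhgap36 with 375 at rank 5, level with the acute phase gene Saa2. Rank 1 went to Il1f6, the gene of the epithelial cytokine interleukin-36 alpha, with 583 counts in each G1 library, 181 and 116 in G2 and 0 to 2 in the reference libraries. Rank 3 went to Atp13a4, the gene of a P5-type ATPase, with 274 and 384 counts in G1 and 30 and 19 in G2. Mean levels were higher in G1 for 25 of the 31 and in G2 for 6, Arhgap36 and the beta-defensin gene Defb36 among the latter. The alleles did not overlap, with G1 higher in 19 and with G2 higher in 3, where the shares over all tested genes were 30.0% and 25.1%. Between the alleles, 5 of the 31 were called lower in G2, Sprr2f, Atp13a4, Saa2, Fam83c and S100a3, and 0 were called higher, beside 2.88% lower and 3.84% higher of all tested genes. Like that of Sprr2f, the calls of Saa2, Fam83c and S100a3 were lost when any 1 risk allele library was left out (adjusted p from 0.0668 to 0.210), and S100a3 also lost its call without Control replicate 1 (0.0595) or 3 (0.0503). That of Atp13a4 was lost without G1 replicate 1 (0.0591), G1 replicate 2 (0.0892) or G2 replicate 2 (0.0624).

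**Figure D4:**
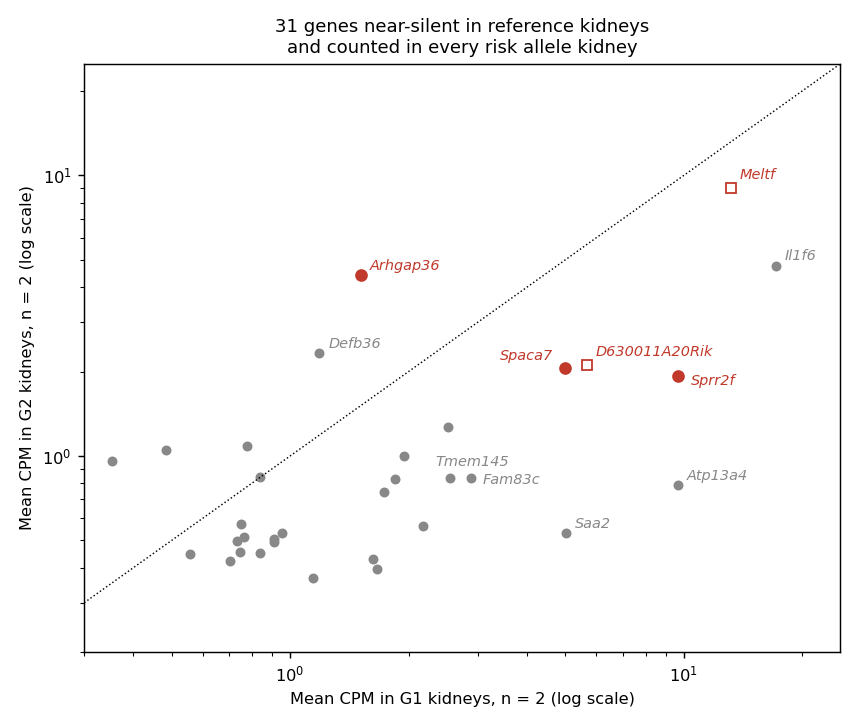
Mean level in G2 (vertical) against G1 (horizontal) kidneys in CPM, both axes logarithmic, n = 2 libraries each, with a dotted line of equality. Grey points are the genes among the 31 that are not members, red points the 3 members among them and open squares the members D630011A20Rik and Meltf, which lie outside the thresholds: most points lie on the G1 side of the line, and Arhgap36 lies on the G2 side at 1.51 and 4.41.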

How the data were processed

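Poly(A) RNA of mouse kidney was sequenced as single-end reads of 100 bases in 10 libraries, per the labels. Each library has 1 deposited table of raw read counts by Ensembl gene, not normalized by the authors. The submitters' processing notes name HTSeq 0.6.1, STAR 2.4.1d, Trim Galore, FastQC, CASAVA 1.8.2 and GRCm38. How the tools were set, strand included, is not given in the sources used here, nor is the annotation release. The labels name RNeasy Mini in one field and miRNeasy in another. The human APOL1 transcript was not analysed here, so genotype labels were not checked against it.

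Symbols and coordinates came from GENCODE M21, which matched 46005 of 46517 IDs, and promoter windows from a RefSeq table for GRCm38.p6. CPM is counts per 1000000 of a library's total (27596391 to 34815153). Count intervals are exact Poisson intervals and ratio intervals exact binomial ones (95%), computed with scipy 1.17.1. Tests used edgeR 4.0.16 in R 4.3.3 with TMM scaling, filterByExpr (minimum count 10) and a single quasi-likelihood fit to the 10 libraries with 4 group means; Benjamini-Hochberg adjusted p under 0.05 over 17823 genes was a call. SE was derived from the fold change and its F statistic. The fit was tested on simulated data. Alternatives were library totals alone, DESeq2 size factors, no filter, DESeq2 1.42.0 and leaving out each library.

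The 5 members and the 16 gene lists were chosen with earlier results of these data known. From each list, the 4 genes with the highest mean CPM and the 3 with the lowest p in risk alleles against Control could be named, besides every Sprr2 gene, the 2 nearest named genes on each side of a member, the 3 genes nearest in pattern, and the 10 genes with most reads among the near-silent ones. Tgm5, Smcp, Ltf, Rbmx2, S100a3 and Prkar2a, the iron and Hedgehog genes named by their allele difference, and marker genes given by their counts, complete small counts or describe a level and were named after their values were seen. The member ratios without single reference libraries were added after seeing the data.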

Additional observations from a re-analysis of the deposited data

Results flagged for a closer look

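Differences between the alleles were singled out where the test of G2 against G1 itself was called (edgeR adjusted p under 0.05 over 17823 genes), among the members, the Sprr2 genes, the 10 near-silent genes with most reads and other genes described above. In log2 units, Sprr2f differed by -2.28, Sprr2g by -2.93, Crct1 by -4.75, Atp13a4 by -3.55, Saa2 by -3.17, Fam83c by -1.74 and S100a3 by -2.01, so these 7 were lower in G2. Each of their calls was lost without G1 replicate 1, without G1 replicate 2 and without G2 replicate 2. Crct1 passed the filter on low counts through the G1 libraries alone, so nothing is read from its call. Of the genes in the lists beside the members, Sbsn (-1.11), Slc40a1 (-0.79), Steap1 (-1.99), Steap2 (-1.15) and Krt20 (-3.52) were also lower in G2. Gli1 (1.27), Gli2 (2.89), Smcp (3.63) and Slc39a8 (1.16) were higher in G2. The calls of Slc39a8, Steap1 and Steap2 were each lost in 1 of 10 fits that left out 1 library, that of Krt20 in 3, that of Gli2 in 4, those of Sbsn, Slc40a1 and Smcp in 7 and that of Gli1 in all 10.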

How the results depend on the processing

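Fitted log2 differences against a group near 0 depended on single libraries. Against Control, that of D630011A20Rik went from 6.27 to 9.64 without Control replicate 1, that of Arhgap36 from 7.16 to 9.21 without Control replicate 2, and that of Meltf from 6.14 to 6.97 without Control replicate 2. Against wild type (single mutant), that of D630011A20Rik went from 5.65 to 7.17 and that of Spaca7 from 6.21 to 7.06 without replicate 1. No paired analysis was possible because replicate numbers follow the order of deposit and pair nothing. With library totals alone, 6036 genes were higher and 1601 lower in risk alleles against Control (3441 and 3212 with TMM), and 6226 and 1711 against wild type (single mutant) (3681 and 3440); the median of all genes moved to 0.28 and 0.29, and the causes were not tested. Wild type (single mutant) against Control called 0 genes with edgeR (724 at an unadjusted p under 0.05), 4 with no filter and 17 with DESeq2. G2 against G1 called 1198, and 2485 with DESeq2 (1202 higher, 1283 lower). Leaving out 1 library at a time gave 4683 to 6883 calls for risk alleles against Control (2553 to 3523 higher, 2130 to 3360 lower), 5214 to 7067 against wild type (single mutant) (2806 to 3695 higher, 2408 to 3383 lower), 0 to 2 for wild type (single mutant) against Control, and 22 to 1441 for G2 against G1 (11 to 850 higher, 11 to 591 lower). For G2 against G1 the lowest counts were 22 without G1 replicate 2, 84 without G1 replicate 1 and 191 without G2 replicate 2. The 31 near-silent genes became 3 with at most 1 count and 65 with at most 5 counts allowed in each reference library, and 82 with at least 5 and 9 with at least 20 counts required in each risk allele library, by the construction of the thresholds; without 1 library they were 32 to 44. The depth leaves levels under about 3 counts in a reference library undetermined.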
